A study of Mus musculus with 20 samples.

Results

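The immunity-related GTPases (IRGs) are interferon-inducible proteins of mouse macrophages, and 7 of their genes were followed here across 20 libraries of bone marrow-derived macrophages (BMDMs). The 7 genes were Iigp1 (ENSMUSG00000054072), Irgm1, Irgm2, Igtp, Tgtp1, Tgtp2 and Ifi47. They were taken by gene name from the 78317 genes listed in the expression table, and each name matched 1 row. All 7 passed the filter on low values in every comparison.

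The study asked how airway fluid from inflamed mice, with or without the small noncoding RNA RNY1, changes macrophage gene expression. All BMDMs were wild-type cells grown from the marrow of female C57BL/6J mice, plated at 200000 cells per well and treated on day 7 of culture. They received PBS alone or a fraction of bronchoalveolar lavage fluid (BALF) from mice with ovalbumin (OVA)-induced airway inflammation, and each of the 5 groups held 4 libraries. RNA was sequenced from the 3′ end with unique molecular identifiers.

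RNY1+/+ EVFx and RNY1-/- EVFx were the extracellular vesicle-enriched fractions from mice with or without RNY1, given at an equal 35000000 particles per µL. RNY1+/+ ProteinFx and RNY1-/- ProteinFx were the protein-enriched fractions from the same kinds of mice, given at an equal 0.75 µg of protein per µL. The genotype in a group's name is therefore that of the fluid donor, a knockout that lacks RNY1 in every cell, and never that of the macrophage. Particle and protein doses have no common scale, so a difference between EVFx and ProteinFx is a difference between preparations at those doses. The labels give no age by group, put all 20 libraries in a single batch, and do not say whether libraries of a group came from separate cultures or lavages, so p-values measure the spread between these libraries.

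IRG proteins are large GTPases that interferon-γ, and to a lesser degree type I interferon, induces. The GKS subclass, here Iigp1 (Irga6), Tgtp1 and Tgtp2 (both Irgb6) and Ifi47 (Irgd), are effectors that load onto the vacuoles of intracellular pathogens such as Toxoplasma and Chlamydia and help to disrupt them. The GMS subclass, here Irgm1, Irgm2 and Igtp (Irgm3), sits on the cell's own membranes and holds the effectors inactive there, so that the balance between the subclasses matters for where the effectors act.

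The promoters are shown because the family is known as an interferon target and most members share a short stretch just before the start site. RefSeq promoter windows (GRCm38.p6, 250 bases before to 50 after the start) were available for 6 of the 7 genes, and Iigp1 was the gene with no entry. Both strands were searched for GAAA followed by any 2 bases and again GAAA, the core of the interferon-stimulated response element (ISRE), and for TTCNNNGAA, the core of the gamma-activated site (GAS). The ISRE core was found in 5 of the 6 windows, and in 3.99% of the 27025 genes with a window. The GAS core was found in 4 of the 6 and in 9.55% of all genes, and both together in 4 of the 6 and in 0.614% of all genes. In the 30 bases printed here for each gene with a match, 5′ to 3′ on the gene's own strand, capitals mark the matched letters.
Irgm2: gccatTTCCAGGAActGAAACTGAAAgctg
Igtp: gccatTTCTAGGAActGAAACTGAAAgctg
Tgtp1: gccatTTCCAGGAAtcGAAACTGAAAccta
Tgtp2: gccatTTCCAGGAAtcGAAACCGAAAccta
Irgm1: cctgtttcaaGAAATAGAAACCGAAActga

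In Irgm2, Igtp, Tgtp1 and Tgtp2 the GAS core stood directly before the ISRE core in the same order and at the same spacing. The stretches lay on chromosome 11, at 58214897 to 58214926 on the plus strand for Irgm2 and at 58199506 to 58199535 on the plus strand for Igtp. Those of Tgtp1 and Tgtp2 lay on the minus strand, at 48992310 to 48992339 and 49064269 to 49064298. The stretch of Irgm1, at 48871431 to 48871460 on the minus strand, held 2 overlapping ISRE cores and no GAS core. The window of Ifi47 held neither set of letters, although Ifi47 mRNA rose with the others. Of the 5 guanylate-binding protein (GBP) genes with a window, 5 held the ISRE core and 2 held both. These matches describe letters in a window and show no binding.

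Total counts per library ranged from 2510005 to 8277366, and the lowest count of any member in any library was 8.75, for Tgtp1 under PBS, against a floor of 3 counts. All 10 macrophage markers were over the floor in every group, with summed levels of 8800 to 13660 CPM (counts scaled to the library's total). Among neutrophil markers S100a8 led with group means of 102 to 186 CPM. Their sum was lowest in RNY1+/+ EVFx at 156 to 221 CPM against 328 to 364 CPM in PBS. The surface marker Ly6g was at 0 in every group but RNY1+/+ ProteinFx, and the granule marker Elane in both RNY1-/- groups. Other granule markers were present, Mmp8 at 10.6 to 45.2 CPM and Ngp at 1.39 to 13.4 CPM, both over the floor in 20 libraries. Camp and Ltf were over it in 17, Retnlg in 4 and Mpo in 0. Markers of fibroblasts and airway epithelium summed to at most 51.6 and 33.1 CPM in a library, and those of eosinophils, T cells and B cells to at most 21.4, 9.43 and 4.34 CPM. Tgtp1 and Tgtp2 cannot be read as separate genes: they shared all of their 50-base words in the last 500 bases of the transcript, where 3′ libraries are read, and their counts differed by at most 9.25 in any library. The 7 rows thus hold 6 distinct measurements.

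All 7 IRG mRNAs rose against PBS in all 4 treatments. A gene was called when its adjusted p, from edgeR over all genes tested, was under 0.05 and its absolute log2 fold change exceeded 1. The 7 of 7 called higher stand against 8.24% of all genes in RNY1+/+ EVFx, 9.03% in RNY1-/- EVFx, 8.96% in RNY1+/+ ProteinFx and 6.31% in RNY1-/- ProteinFx. For all 7, every treated library lay above every PBS library, which held for 15.1%, 15.8%, 15.7% and 13.8% of genes in the same order. The median log2 fold change of the 7 was 2.61, 2.58, 3.12 and 3.01, while that of all genes lay near 0 (-0.03 in RNY1+/+ EVFx). The 4 comparisons share the same PBS libraries and are not independent of each other. In bulk RNA, more cells expressing a gene and more RNA per cell cannot be told apart.

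Among the effectors, Iigp1 was at 6.76, 7.42, 8.46 and 5.34 CPM in PBS replicates 1 to 4. It reached 113, 92.0, 45.5 and 49.7 CPM in RNY1+/+ EVFx and 126, 143, 55.4 and 96.4 CPM in RNY1-/- EVFx. With ProteinFx it reached 344, 421, 309 and 301 CPM from RNY1+/+ mice and 269, 273, 327 and 297 CPM from RNY1-/- mice. The groups fell into 3 tiers with no overlap, PBS lowest, EVFx between and ProteinFx highest, and libraries of the RNY1+/+ and RNY1-/- sources overlapped within each fraction. Against PBS the log2 fold change of Iigp1 was 3.61 (SE 0.32) in RNY1+/+ EVFx and 5.79 (SE 0.17) in RNY1+/+ ProteinFx, with adjusted p of 5.3e-06 and 5.8e-10 (edgeR). For the RNY1-/- sources it was 4.16 (SE 0.29) and 5.45 (SE 0.17).

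Tgtp1 started from the lowest level of the 7, 2.82 ± 0.842 CPM (SD, n = 4) in PBS. Its 4 libraries measured 51.7, 40.5, 24.0 and 31.7 CPM in RNY1+/+ EVFx and 71.9, 79.2, 69.6 and 78.4 CPM in RNY1+/+ ProteinFx. From RNY1-/- mice they measured 47.6, 44.1, 17.9 and 33.4 CPM with EVFx and 52.5, 50.1, 64.3 and 51.9 CPM with ProteinFx. The EVFx libraries covered a wide range, and every ProteinFx library lay above every EVFx library of its source. The rise over PBS was 14.6-fold in RNY1+/+ EVFx and 29.2-fold in RNY1+/+ ProteinFx. In RNY1-/- EVFx and RNY1-/- ProteinFx it was 14.8-fold and 19.8-fold. Tgtp2, read from nearly the same sequence, gave 14.5-fold, 28.6-fold, 14.5-fold and 19.4-fold in that order of groups.

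Ifi47 averaged 48.5 ± 3.80 CPM in PBS, 216 ± 22.1 in RNY1+/+ EVFx and 212 ± 31.2 in RNY1-/- EVFx (SD, n = 4 each). In RNY1+/+ ProteinFx and RNY1-/- ProteinFx it averaged 361 ± 22.3 and 337 ± 19.4 CPM. These were rises of 5.03-fold, 5.17-fold, 8.36-fold and 7.28-fold over PBS. The lowest EVFx library of Ifi47, at 168 CPM, was far above the highest PBS library, at 53.4 CPM.

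**Figure D1:**
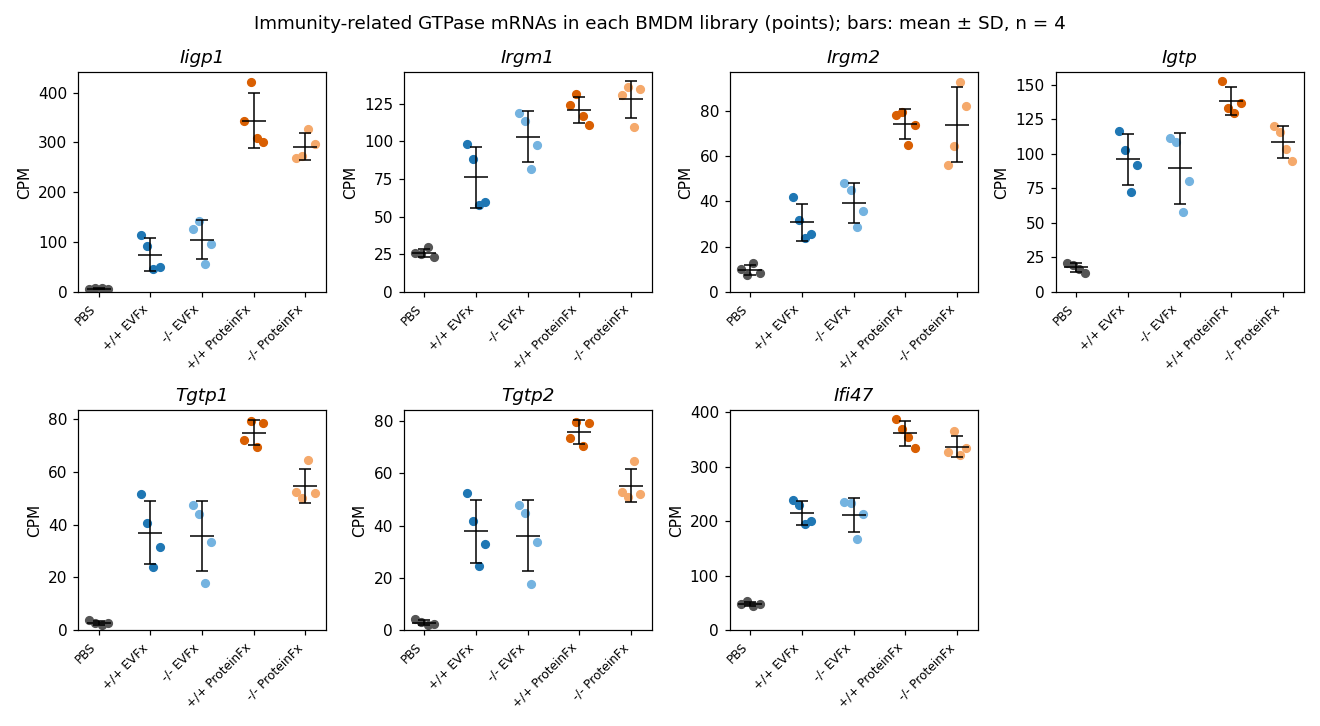
CPM of each of the 7 genes (vertical axes, linear from 0) in the 5 groups, with 1 point per library and the mean ± SD (n = 4) as bars. In every panel the 4 PBS libraries lie below all treated libraries, and for Iigp1 the ProteinFx libraries (269 to 421 CPM) lie above the EVFx libraries (45.5 to 143 CPM).

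The regulators rose less than Iigp1 and Tgtp1. Irgm1, whose loss is known to impair macrophage autophagy and host defence, measured 25.8, 25.3, 29.8 and 23.3 CPM in PBS and 98.0, 88.5, 57.9 and 59.8 CPM in RNY1+/+ EVFx. Its log2 fold change was the lowest of the 7 in all 4 comparisons, 1.73 (SE 0.18), 2.23 (SE 0.14), 2.38 (SE 0.11) and 2.37 (SE 0.12) in the order RNY1+/+ EVFx, RNY1-/- EVFx, RNY1+/+ ProteinFx and RNY1-/- ProteinFx. Its interval overlapped that of Irgm2 in every comparison but RNY1+/+ ProteinFx, that of Igtp in both RNY1-/- comparisons, and that of Ifi47 with RNY1-/- EVFx, and the differences between members were not tested.

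Irgm2 rose from 9.66 ± 2.24 CPM in PBS to 30.8 ± 8.27 in RNY1+/+ EVFx, 39.3 ± 8.72 in RNY1-/- EVFx and 73.8 ± 16.7 in RNY1-/- ProteinFx (SD, n = 4), and its RNY1+/+ ProteinFx libraries held 64.8 to 79.6 CPM. Igtp, which with Irgm1 and Irgm2 keeps effectors off self membranes, averaged 17.8 ± 3.14 CPM in PBS (SD, n = 4). It measured 116, 103, 72.7 and 91.9 CPM in RNY1+/+ EVFx and 111, 109, 57.6 and 80.3 CPM in RNY1-/- EVFx. Igtp was thus about 6 times its PBS level in both EVFx groups, with folds of 6.10 and 5.96, and the ProteinFx folds were 8.72 from RNY1+/+ and 6.38 from RNY1-/- mice. Igtp and Irgm2 shared no 50-base word in the last 500 bases of their transcripts, but Irgm2 overlaps Igtp on the same strand in the annotation used here, so some of their reads may not be separable.

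**Figure D2:**
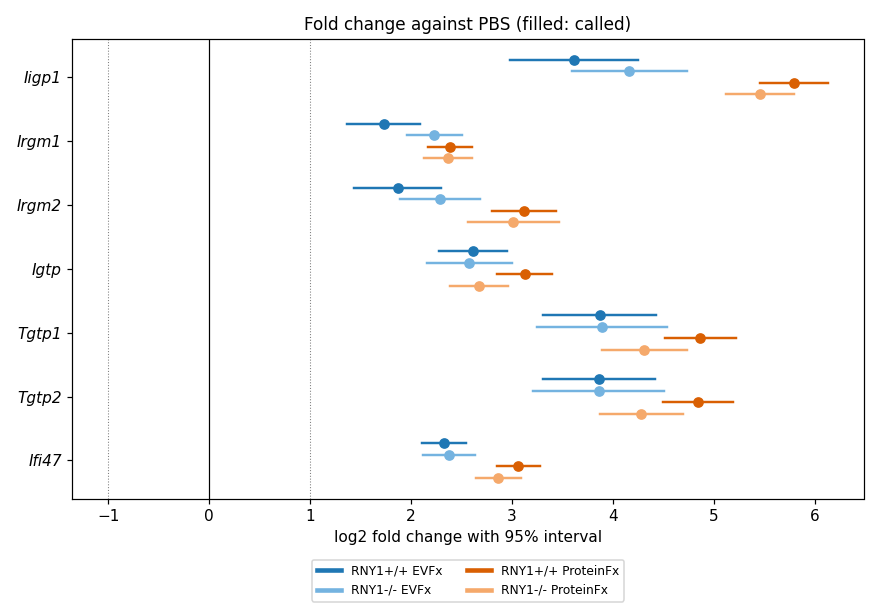
log2 fold change of each gene against PBS (horizontal axis) with its 95% interval, 1 colour per treatment, filled where called and with dotted lines at the fold change limits. Every interval lies above 1, Irgm1 has the lowest point in each treatment, and Iigp1 has the largest ProteinFx values (5.79 and 5.45).

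Which fraction gave the higher IRG level was compared within each source. In RNY1+/+ treatments, 3 of 7 genes were called higher with ProteinFx than with EVFx (6.71% of all genes), Iigp1 at a log2 fold change of 2.18 (SE 0.23), Irgm2 at 1.26 (SE 0.14) and Tgtp1 at 1.001 (SE 0.16). Tgtp2, at 0.984, fell just under the fold limit that Tgtp1 just passed, and the rows share their reads. By adjusted p alone all 7 were higher (31.1% of all genes), and in all 7 every ProteinFx library lay above every EVFx library (27.1% of all genes). The smallest of these differences was that of Igtp, 0.52 (SE 0.12, adjusted p = 0.0013 by edgeR). The call of Tgtp1 ended without RNY1+/+ EVFx replicate 3 or 4 or RNY1+/+ ProteinFx replicate 2 or 4, with log2 fold changes of 0.86, 0.92, 0.99 and 0.97. It also ended with length and GC trends removed, at 0.80, where 2 of 7 were called. Across genes this fold change fell with the GC content of the transcript (Spearman rho -0.49).

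In RNY1-/- treatments only Iigp1 of the 7 was called higher with ProteinFx, at 1.30 (SE 0.22, adjusted p = 0.00074), against 4.98% of all genes. By adjusted p alone 3 of 7 were higher (15.2% of all genes), Iigp1, Irgm2 at 0.73 (SE 0.19) and Ifi47 at 0.50 (SE 0.12). The libraries of the 2 fractions did not overlap for 5 of 7, the other 2 being Irgm1 and Igtp (23.1% of all genes). For Irgm1 the difference was 0.15 (95% interval -0.09 to 0.39) and for Igtp 0.11 (95% interval -0.22 to 0.45). The 7 eosinophil markers, summed, also differed by fraction, at 0.801 to 2.46 CPM over both EVFx groups and 12.7 to 21.4 CPM over both ProteinFx groups. In the PBS libraries, which received no lavage fluid, their sum was 7.65 to 13.6 CPM. Ccr3 made up most of that sum, and Epx and Il5ra were at 0 in every library, and the part of these markers in the fraction difference was not tested.

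Whether the IRG response differed by donor genotype was tested within each fraction. With EVFx, none of the 7 was called higher or lower, against 0.378% and 1.98% of all genes. Irgm1 alone passed by adjusted p, being higher with RNY1-/- EVFx by 0.51 on the log2 scale (SE 0.16, adjusted p = 0.02 by edgeR), in a comparison where 25.5% of all genes were higher by that rule. At an unadjusted p under 0.05 there were 2 of 7, fewer than the 58.4% of all genes, and DESeq2 called 0. The groups overlapped for all 7, while 17.8% of genes lay wholly higher and 26.9% wholly lower. Irgm1 measured 119, 113, 81.7 and 97.7 CPM with RNY1-/- EVFx, and 2 of these 4 libraries lay above the highest of RNY1+/+ EVFx, 98.0 CPM, with a further one at 97.7. Iigp1 and Irgm2 had differences of 0.56 (95% interval -0.01 to 1.13) and 0.43 (95% interval 0.08 to 0.78) with adjusted p of 0.12 and 0.057, and Igtp, Tgtp1, Tgtp2 and Ifi47 lay between -0.02 and 0.05. Across genes in this comparison the fold change fell with the GC content of the transcript (Spearman rho -0.65), and with length and GC trends removed the Irgm1 difference was 0.39 with an adjusted p of 0.065. The 8 airway epithelial markers summed to 5.32 to 11.01 CPM with RNY1+/+ EVFx and 9.94 to 30.7 CPM with RNY1-/- EVFx. In PBS, with no lavage fluid, they summed to 8.35 to 33.1 CPM. Of the 2 tested both were higher with RNY1-/- EVFx by adjusted p, Krt8 at 1.13 (called) and Krt18 at 0.94, while the lung markers Sftpc, Sftpb and Cldn18 were at 0 in every library. The part of these markers in the Irgm1 difference was not tested. The adjusted p of Irgm1 stayed under 0.05 in 5 of the 8 fits that left out a library and in 9 of 10 other alternatives, with values up to 0.076 and 0.065. That of Irgm2 did so in 2 of 8 and 4 of 10, with values up to 0.18 and 0.17. For Iigp1 it did so in 2 of 8 and 2 of 10, with values up to 0.33 and 0.52.

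With ProteinFx, again none of the 7 was called, against 0.659% of all genes higher and 1.17% lower. By adjusted p alone, 3 of 7 were lower with the RNY1-/- source (3.37% of all genes), Igtp by -0.43 (SE 0.10, adjusted p = 0.026), Tgtp1 by -0.55 (SE 0.12, adjusted p = 0.018) and Tgtp2 by -0.55 (SE 0.12, adjusted p = 0.015). At an unadjusted p under 0.05 there were 4 of 7 (19.3% of all genes), and DESeq2 called 0. Igtp measured 152, 133, 129 and 137 CPM with RNY1+/+ ProteinFx and 120.2, 116, 103 and 95.1 CPM with RNY1-/- ProteinFx. The 2 groups of Igtp did not overlap, and neither did those of Tgtp1 and Tgtp2, whose lowest RNY1+/+ values were 69.6 and 70.4 CPM and whose highest RNY1-/- values were 64.3 and 64.7 CPM. Such a complete drop held for 4.96% of all genes.

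Irgm1 and Irgm2 showed no such difference with all libraries kept. Irgm1 averaged 121 ± 8.85 CPM with RNY1+/+ ProteinFx and 128 ± 12.5 CPM with RNY1-/- ProteinFx (SD, n = 4), with a log2 difference of -0.001 (95% interval -0.20 to 0.20). Irgm2 differed by -0.10 (95% interval -0.42 to 0.22), with RNY1-/- libraries at 55.9, 64.6, 92.8 and 82.1 CPM on both sides of the RNY1+/+ range of 64.8 to 79.6 CPM. Over 12 alternatives other than leaving out 1 library, the Irgm2 difference ran from -0.43 to 0.20, the latter without RNY1-/- ProteinFx replicates 1 and 2. It passed by adjusted p alone in 1 of them. Iigp1 differed by -0.32 (95% interval -0.57 to -0.07, adjusted p = 0.19) and Ifi47 by -0.18 (95% interval -0.37 to 0.003, adjusted p = 0.32). The adjusted p of Igtp stayed under 0.05 in 4 of 8 fits that left out a library and in 6 of 12 other alternatives, with values up to 0.099 and 0.13. That of Tgtp2 did so in 6 of 8 and 9 of 12, with values up to 0.069 and 0.14. For Tgtp1 it did so in 5 of 8 and 9 of 13, with values up to 0.077 and 0.15.

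**Figure D3:**
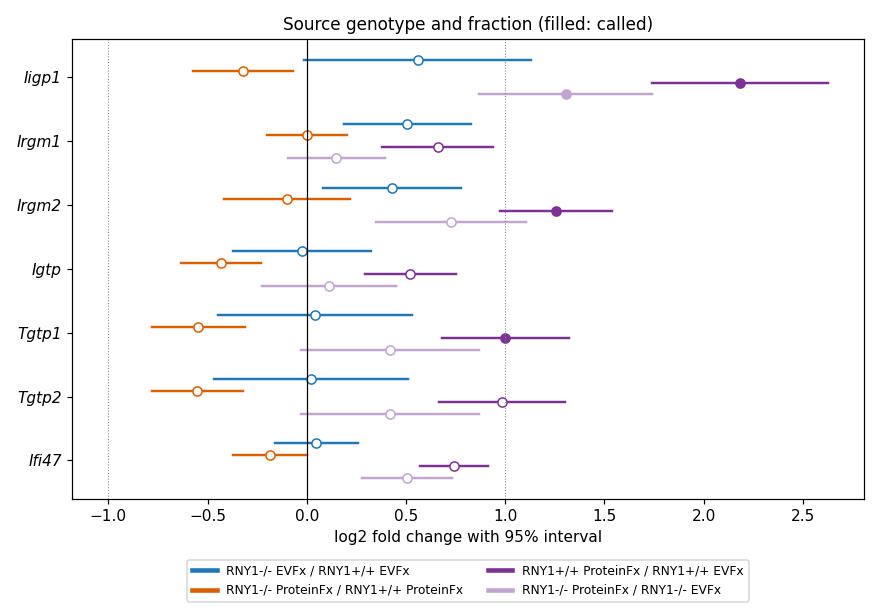
log2 fold change with its 95% interval for the 7 genes between donor genotypes (blue for EVFx, orange for ProteinFx) and between fractions (purple for RNY1+/+, light purple for RNY1-/-), filled where called. The orange intervals of Igtp, Tgtp1 and Tgtp2 lie below 0, with points at -0.43, -0.55 and -0.55, as does that of Iigp1, which did not pass by adjusted p, and the 4 filled points are fraction differences of Iigp1, Irgm2 and Tgtp1.

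The difference between these genotype effects was then tested as an interaction over 16 libraries. All 7 estimates were negative, from -0.23 for Ifi47 to -0.88 for Iigp1 on the log2 scale, and none passed, with adjusted p from 0.064 to 0.21 (edgeR). By the same rule 16.2% of all genes passed with a negative and 16.8% with a positive term. At an unadjusted p under 0.05 there were 2 of 7 or, over all genes, 46.8%, and DESeq2 called 0. The interval for Iigp1 was -1.58 to -0.18 and that for Irgm1 -0.92 to -0.10. Across genes the interaction term rose with the GC content of the transcript (Spearman rho 0.59). With length and GC trends removed, Iigp1 was at -0.52 (SE 0.34, adjusted p = 0.27 by edgeR). Irgm1 was then at -0.35 (SE 0.20, adjusted p = 0.2 by edgeR). Igtp went the other way, from -0.41 to -0.525, and none of the 7 passed. Both epithelial markers tested, Krt8 at -1.76 and Krt18 at -1.498, passed with a negative term. The count moved with single libraries: it was 5 without RNY1-/- EVFx replicate 3, 3 without RNY1+/+ EVFx replicate 1, 1 without RNY1+/+ EVFx replicate 2 and 2 without RNY1-/- ProteinFx replicate 3.

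The members moved together in many libraries, most widely within the EVFx groups. In RNY1+/+ EVFx all 7 lay above their group means in replicates 1 and 2 and all 7 below in replicates 3 and 4, with mean deviations of 0.45, 0.18, -0.42 and -0.20 on the log2 scale. In RNY1-/- EVFx all 7 lay below in replicate 3, by -0.63 on average, and all 7 above in replicates 1 and 2, by 0.33 and 0.28. Over the 9 GBP genes measured the mean deviation in the same libraries was 0.33, 0.24, -0.34 and -0.23 in RNY1+/+ EVFx and -0.54 in RNY1-/- EVFx replicate 3. The lowest library of each EVFx group was also the shallowest, with 4994483 and 4059987 counts, but RNY1+/+ EVFx replicate 4, with the highest total of 8277366, lay below its group mean too. What the low libraries have in common was not tested. In PBS all 7 lay above in replicate 1, by 0.21 on average, and all 7 below in replicate 4, by -0.17. In PBS replicates 2 and 3 the members were split. In ProteinFx the mean deviations were smaller than in EVFx, from -0.10 to 0.12. All 7 lay below in RNY1+/+ ProteinFx replicate 3, while members of RNY1-/- ProteinFx went different ways, Irgm2 at 0.38 and Irgm1 at -0.19 in replicate 3.

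**Figure D4:**
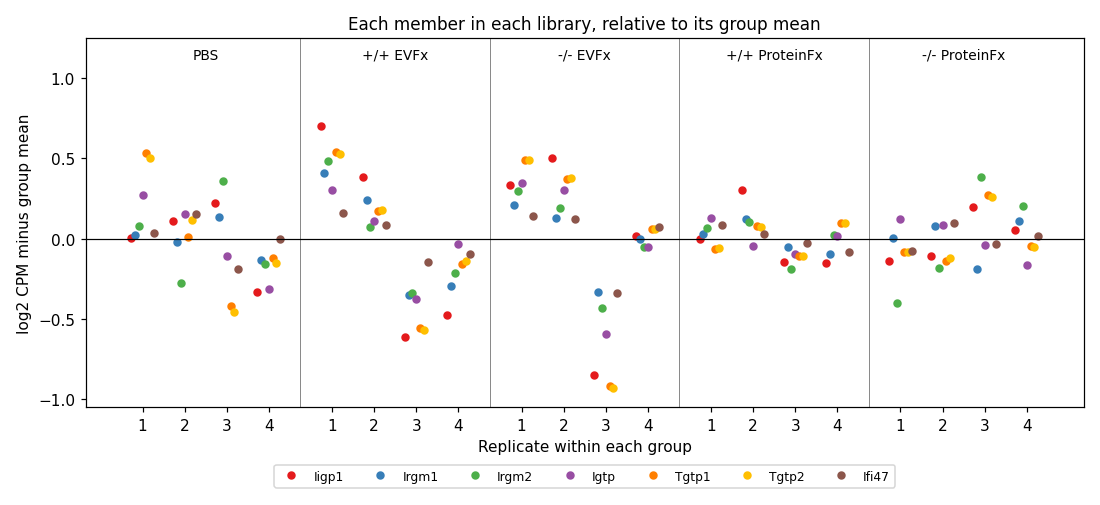
log2 CPM of each gene in each library minus its mean over the 4 libraries of that group (vertical axis), with 1 point per gene and groups separated by grey lines. In RNY1+/+ EVFx the points of replicates 1 and 2 all lie above 0 and those of 3 and 4 all below, and RNY1-/- EVFx replicate 3 is lowest, at -0.63 on average.

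The balance between members was followed as the ratio of counts within a library, which no scaling between libraries can move. The ratio of Irgm1 to Igtp, both regulators, was 0.843, 0.859, 0.796 and 0.651 in RNY1+/+ EVFx and 1.07, 1.04, 1.42 and 1.22 in RNY1-/- EVFx. It was 0.815, 0.984, 0.902 and 0.811 in RNY1+/+ ProteinFx and 1.09, 1.17, 1.06 and 1.42 in RNY1-/- ProteinFx. In both fractions every RNY1-/- library lay above every RNY1+/+ library, and PBS lay highest on average, at 1.23 to 1.78. This ratio was singled out after its values were seen, so it is given without a test. The 2 transcripts differ in GC content, 45.6% for Irgm1 and 49.5% for Igtp, and the fold change between genotypes varied with GC across genes, at rho -0.65 in EVFx and 0.16 in ProteinFx. With length and GC trends removed, the genotype difference in EVFx went from 0.51 to 0.39 for Irgm1 and from -0.02 to 0.075 for Igtp, which brought the genes closer. In ProteinFx it went from -0.001 to 0.025 for Irgm1 and from -0.43 to -0.47 for Igtp, which moved the genes further apart. The part of GC content in the ratio itself was not tested. The ratio of Irgm2 to Igtp separated the sources with EVFx, at 0.278 to 0.361 against 0.412 to 0.500, but overlapped with ProteinFx.

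The ratio of Iigp1 to Igtp followed the fraction instead. It was 0.322 to 0.503 in PBS, 0.540 to 0.975 in RNY1+/+ EVFx and 0.962 to 1.31 in RNY1-/- EVFx. With ProteinFx it was 2.20 to 3.16 from RNY1+/+ and 2.24 to 3.17 from RNY1-/- mice, nearly the same range. The RNY1-/- values were 2.24 and 2.35 in replicates 1 and 2 and 3.17 and 3.12 in replicates 3 and 4. Every ProteinFx library therefore held at least 2.20 Iigp1 counts for each Igtp count and no EVFx library more than 1.31. The GC content of the Iigp1 transcript is 39.3% and that of Igtp 49.5%. Across genes the fold change between fractions varied with GC, at rho -0.49 in RNY1+/+ and 0.066 in RNY1-/- treatments. With length and GC trends removed, the RNY1+/+ fraction difference went from 2.18 to 1.81 for Iigp1 and from 0.52 to 0.60 for Igtp. The RNY1-/- fraction difference went from 1.30 to 1.28 for Iigp1 and from 0.11 to 0.058 for Igtp. The part of GC content in this ratio was not tested.

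**Figure D5:**
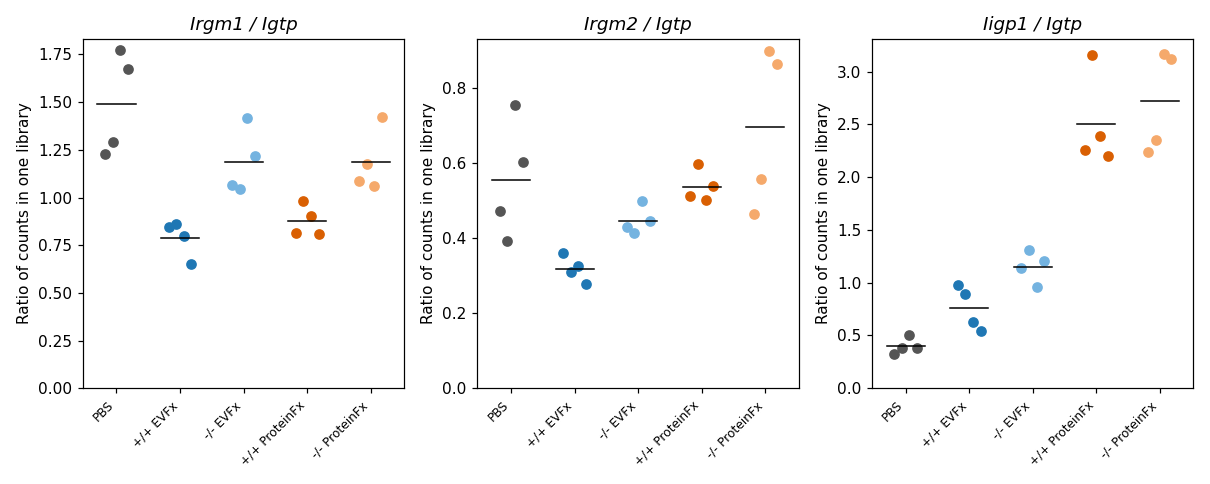
Ratio of counts to Igtp within each library (vertical axes, linear from 0) for Irgm1, Irgm2 and Iigp1, with 1 point per library and a line at the mean of the 4. The Irgm1 ratio is higher in RNY1-/- than in RNY1+/+ libraries of both fractions, and the Iigp1 ratio is at least 2.20 in all ProteinFx libraries and at most 1.31 in all EVFx libraries.

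Over all 20 libraries the lowest Pearson r between 2 members was 0.92, for Irgm2 and Igtp. Over the 16 treated libraries the r of Irgm2 and Igtp was 0.64 and that of Irgm1 and Igtp was 0.59, while Irgm2 and Iigp1 kept 0.97. These values share libraries and describe the pattern only. Among 7544 other genes with a mean of at least 10 CPM, those with patterns most like the mean of the members over 20 libraries were Ifi213 (r 0.996), Ms4a4c (0.995), Ifi208 (0.994), Fgl2 (0.993) and Gbp7 (0.993), and 225 genes reached 0.9. Ifi213, of the interferon-inducible PYHIN family, averaged 15.3 CPM in PBS, 138 and 175 in RNY1+/+ EVFx and RNY1-/- EVFx, and 379 and 288 in RNY1+/+ ProteinFx and RNY1-/- ProteinFx. Over the 16 treated libraries alone the closest were Gbp7, Ifit1bl1, Slfn9, Ifi208 and Ifi203.

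The genes around the IRGs in the interferon pathway moved as follows. None of 8 interferon ligand genes, Ifng and Ifnb1 among them, passed the filter on low values in any comparison. Of 7 receptor and kinase genes 2 were called higher with RNY1+/+ EVFx (8.24% of all genes), and 1 with each of RNY1-/- EVFx (9.03%), RNY1+/+ ProteinFx (8.96%) and RNY1-/- ProteinFx (6.31%). Jak2, a kinase of the interferon-γ receptor, was called in all 4, with log2 fold changes of 2.40, 2.38, 2.65 and 2.096 in that order. Tyk2, a kinase of the type I interferon receptor, was called with RNY1+/+ EVFx at 1.14 (SE 0.14), and was called lower with RNY1+/+ ProteinFx than with RNY1+/+ EVFx at -1.07 (SE 0.11), as were 6.82% of all genes. Of 9 transcription factor genes 6 were called higher against PBS in each of the 4 treatments, beside the same shares of all genes, 8.24%, 9.03%, 8.96% and 6.31%. Irf8, a transcription factor of the myeloid lineage, averaged 269 ± 63.2 CPM in PBS and 112 ± 1.88 CPM in RNY1+/+ ProteinFx (SD, n = 4).

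GBPs, which act with IRG proteins on pathogen vacuoles, were called higher in 9 of 9 tested with each EVFx and 10 of 10 with each ProteinFx. Over all genes the share called higher was 8.24% with RNY1+/+ EVFx, 9.03% with RNY1-/- EVFx, 8.96% with RNY1+/+ ProteinFx and 6.31% with RNY1-/- ProteinFx. Gbp2 rose from 20.6 ± 3.77 CPM in PBS to 681 ± 115 in RNY1+/+ EVFx and 763 ± 79.2 in RNY1+/+ ProteinFx. Between donor genotypes with ProteinFx, 1 of 10 GBPs was called lower (1.17% of all genes), Gbp5 at -1.09 (SE 0.20, adjusted p = 0.0074 by edgeR). By adjusted p alone 6 of 10 were lower (3.37% of all genes). Gbp8 went the other way (2.2% of all genes), higher with RNY1-/- ProteinFx by 0.98 (SE 0.17, adjusted p = 0.005 by edgeR). Of 6 feedback inhibitors of interferon signalling 2 were called lower in that comparison (1.17% of all genes), Usp18 at -1.09 (SE 0.13) and Socs3 at -1.55 (SE 0.23). Of 6 rows tested for other IRG loci, 3 were called higher than PBS with each EVFx, 4 with RNY1+/+ ProteinFx and 5 with RNY1-/- ProteinFx. The shares of all genes were those given above for the GBPs. None was called between genotypes, where few genes were, 0.378% higher and 1.98% lower with EVFx and 0.659% and 1.17% with ProteinFx. By adjusted p alone 2 of 6 were higher with RNY1-/- EVFx than with RNY1+/+ EVFx (25.5% of all genes), F830016B08Rik by 0.68 (SE 0.15) and 9930111J21Rik2 by 0.67 (SE 0.22). Against PBS F830016B08Rik rose by 3.84 (SE 0.21) with RNY1+/+ ProteinFx, and Gm12250, the locus of Irgb10, which has 2 rows, by 2.95 and 3.12.

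The 16 autophagy-related genes listed, LC3 and GABARAP conjugation genes among them, did not move as a block. Of 15 tested with RNY1+/+ ProteinFx 1 was called higher and 3 lower, against 8.96% and 12.4% of all genes, Trim21 rising by 1.57 (SE 0.14) and Gabarapl1 and Gabarap falling by 1.71 (SE 0.27) and 1.46 (SE 0.30). With RNY1+/+ EVFx 2 of 16 were called higher and none lower, against 8.24% and 8.2% of all genes, Sqstm1, an autophagy receptor, by 2.90 (SE 0.19) and Trim21 by 1.32 (SE 0.14). With RNY1-/- EVFx 2 of 15 were called higher and 3 lower (9.03% and 13.5% of all genes), and with RNY1-/- ProteinFx 1 of 16 higher and 4 lower (6.31% and 7.99%). None of 15 was called between donor genotypes with EVFx (0.378% of all genes higher and 1.98% lower) or with ProteinFx (0.659% and 1.17%). In the interaction 5 of 15 passed with a positive term, Ulk1, Gabarapl1, Gabarap, Map1lc3b and Sqstm1, and 2 with a negative term, Atg3 and Atg12, against 16.8% and 16.2% of all genes.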

How the data were processed

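BMDM RNA was extracted and sequenced by a service provider. According to the submitters' processing notes and the study's methods, reads were filtered with fastp 0.24.0, aligned to GRCm39 with STAR 2.7.11, deduplicated by molecular identifier and counted by strand on exons and 3′ UTRs with featureCounts (Subread 2.1.1), with multimapping reads shared out. The authors deposited these expected counts without normalization, and CPM, the count over the library's total, which is printed here as deposited. Fractional counts made up 23.6% to 26.3% of detected values and were rounded for testing.

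Each comparison took 2 groups of 4 libraries without a replicate block. Low genes were removed with filterByExpr and a 3 CPM minimum on the mean. edgeR 4.0.16 in R 4.3.3 supplied TMM scaling and the quasi-likelihood F test, with Benjamini-Hochberg adjustment over all genes tested. The SE divides the log2 fold change by the root of F, and 95% intervals span 1.96 SE to each side. The 92 spike-in rows, 0.000881% to 0.00305% of counts, were left out. Counts stand for molecules, and the floor of 3 counts covers counting error only. Tests were tried on simulated data. Alternatives were DESeq2 1.42.0, other scaling, filters, fits and thinning, removal of length and GC trends (GENCODE annotation of GRCm38), and leaving out libraries.

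The members and lists were chosen with earlier results of these data known. All 7 members are named in every comparison. From other lists came counts and, as a rule, at most 4 examples among the largest called changes with a mean of at least 10 CPM. Ifng and Ifnb1 were named outside that rule, after their values were seen. So were the cell type markers, the autophagy genes of the interaction, and genes that passed by adjusted p alone between genotypes. The latter were Gbp8, F830016B08Rik and 9930111J21Rik2. Replicate numbers were taken to pair the samples where every same-number correlation of deviations exceeded 0.1. This rule was met in RNY1-/- EVFx against PBS (r 0.17 to 0.49) and RNY1-/- ProteinFx against RNY1-/- EVFx (r 0.19 to 0.50), and in no other comparison. RNY1-/- ProteinFx against PBS had higher values, 0.62, 0.73 and 0.72 in replicates 1 to 3, and missed it through replicate 4, at 0.046. In RNY1-/- ProteinFx against RNY1-/- EVFx the best match had the same number in replicates 2 and 4 only. Promoter windows came from RefSeq and were searched with Python 3.11.15.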

Additional observations from a re-analysis of the deposited data

Results flagged for a closer look

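In RNY1-/- ProteinFx, replicate 3 stood apart from the other libraries for Tgtp1, at 64.3 CPM against 50.1 to 52.5 CPM, and for Tgtp2, at 64.7 CPM against 51.1 to 53.0 CPM. In both, the gap to the nearest library exceeded Dixon's 95% limit for 4 values. Among 35 sets of 4 libraries examined, chance alone gives about 1 in 20, and the Tgtp1 and Tgtp2 rows are nearly the same reads. The same library was the highest of its group for Irgm2, at 92.8 CPM, and the lowest for Irgm1, at 109 CPM.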

How the results depend on the processing

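Against PBS, 7 of 7 members were called under every alternative and without each library, and the lowest log2 fold change with a library left out was 1.58 (Irgm1, RNY1+/+ EVFx). Between fractions in the RNY1+/+ source, 2 to 4 were called across normalizations, filters and libraries left out, since Tgtp1 and Tgtp2 lie at the fold limit. With no fold limit the counts were 1 for genotype in EVFx, 3 for genotype in ProteinFx, 7 for fraction in RNY1+/+ and 3 for fraction in RNY1-/-. The RNY1-/- fraction count was 2 without RNY1-/- ProteinFx replicates 1 and 2.

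The interaction count of 0 became 3 with no filter on low counts and 2 without RNY1-/- ProteinFx replicates 3 and 4, and ranged from 0 to 5 with a library left out. With the replicate block it was 2 (Iigp1 and Irgm1), and in no other comparison did the count called move by over 1.5 times. For RNY1-/- EVFx against PBS and RNY1-/- ProteinFx against RNY1-/- EVFx, where the numbers met the rule for pairing, the block changed no call. Elsewhere the rule for pairing was not met, in RNY1-/- ProteinFx against PBS through replicate 4 alone. With the block in genotype comparisons, the adjusted p of Igtp, Tgtp1 and Tgtp2 in ProteinFx was 0.07, 0.063 and 0.058, so that none of the 3 passed, and that of Irgm1, Irgm2 and Iigp1 in EVFx was 0.00037, 0.0019 and 0.0011, so that 3 passed in place of 1. The causes were not tested.

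Signs changed only for differences that no fit called and that lay near 0 with all libraries kept. The widest range was that of Irgm2 between genotypes in ProteinFx, -0.43 to 0.20 over 12 alternatives, and it passed by adjusted p alone in 1. For genotype in EVFx, total counts gave -0.028 for Tgtp1, -0.048 for Tgtp2 and -0.021 for Ifi47, no filter gave -0.017 for Tgtp2, the block gave -0.0033 for Tgtp2, and thinning gave 0.016 for Igtp. Removal of length and GC trends gave 0.075 for Igtp, -0.13 for Tgtp1, -0.15 for Tgtp2 and -0.041 for Ifi47. With a library left out the ranges were -0.14 to 0.13 for Igtp, -0.12 to 0.23 for Tgtp1, -0.14 to 0.22 for Tgtp2 and -0.011 to 0.15 for Ifi47. For genotype in ProteinFx, Irgm1 became 0.086 with total counts, 0.002 with scaling to Rab14, Arpc2 and Cltc, 0.023 with no filter, 0.0083 with thinning, 0.025 with trends removed and 0.0084 without RNY1-/- replicates 3 and 4, and Irgm2 became 0.20 without RNY1-/- replicates 1 and 2. With a library left out the ranges were -0.047 to 0.049 for Irgm1 and -0.24 to 0.031 for Irgm2. For fraction in RNY1-/-, Igtp ranged from -0.047 to 0.23.

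With 4 libraries a group, differences between genotypes carried standard errors of 0.10 to 0.29 on the log2 scale for these genes. Differences of that size, and larger ones too, could go undetected. Iigp1 did not pass by adjusted p (edgeR) at 0.56 (SE 0.29, adjusted p = 0.12) in EVFx or at -0.32 (SE 0.13, adjusted p = 0.19) in ProteinFx.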
